A study of Drosophila melanogaster with 18 samples.

Results

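Drosophila S2 cells, a line derived from embryos with properties of blood cells (hemocytes), were compared under double-stranded RNA against IRE1 and under double-stranded RNA against XBP-1, in both cases without the reducing agent DTT. The comparison used 6 of the 18 arrays of the study, chosen by their titles: the 3 labelled IRE1 RNAi without DTT and the 3 labelled XBP-1 RNAi without DTT, each with a replicate letter A, B or C. Both groups had 3 rounds of double-stranded RNA at about 15 µg/ml, so exposure to double-stranded RNA as such was common to them, and neither had DTT. The other 12 arrays were cells without double-stranded RNA, with and without DTT, and both RNAi groups after 7.4 hours in 2 mM DTT. On every array Cy5-labelled RNA of the cells was hybridised with the same Cy3-labelled reference, pooled from S2 cells with and without DTT and from embryos. The labels name no clones, and each group was a treated cell population. How much of the target RNA was left can be judged here only by probe signal on the arrays. No label says that A, B and C were separate cultures, so the p-values rest on the spread between arrays alone, and that spread may be technical.

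IRE1 is a kinase and nuclease in the membrane of the endoplasmic reticulum (ER), where secreted and membrane proteins fold. When unfolded proteins gather there, IRE1 removes an intron from the mRNA of XBP-1, which then encodes an active transcription factor for chaperones and other ER genes. IRE1 can also cut other mRNAs at the ER membrane, which leads to their decay. Loss of IRE1 would remove both activities, while loss of XBP-1 would leave the nuclease in place. The treatments were set against each other here in cells with no added ER stress.

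Values are log ratios of sample over reference, read as log2 and centred on the median of each array. The table gives neither the base nor the numerator of the ratio, so every size and direction rests on that reading. The 6 arrays held 4851 (XBP-1 RNAi, replicate B) to 6543 (XBP-1 RNAi, replicate A) values of 7257 probes. Spot signals over background were not analysed here. Precision is limited by having 3 arrays in a group and by the empty spots. S2 markers had a median level of 0.27 on the arrays labelled IRE1 RNAi and 0.14 under XBP-1 RNAi, and muscle markers, a tissue present in the embryos of the reference, -1.37 and -1.63. In replicates A, B and C the S2 medians were -0.21, 0.54 and 0.355 on the arrays labelled IRE1 RNAi. Under XBP-1 RNAi they were -0.01, 0.02 and 0.31, so S2 markers were not raised on every array.

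The RNAi targets were examined first, because they check the labels. On the arrays labelled IRE1 RNAi the Ire1 probe was the higher one, against the label. Its values are given as probe signal, and whether that signal is Ire1 mRNA on the arrays with double-stranded RNA against IRE1 was not tested. The centred log2 ratios there were 2.22, 2.28 and 0.62 in replicates A, B and C. Under XBP-1 RNAi they were -0.55, -0.79 and -0.04, and in cells without double-stranded RNA -0.82, -0.22 and -0.19. All 3 arrays labelled IRE1 RNAi lay above the other 6, and replicate C was the lowest of them. The means were 1.71 ± 0.94 (SD, n = 3) and -0.46 ± 0.38 (SD, n = 3), and the difference was 2.17 ± 0.42 (SE), with a 95% interval of 1.28 to 3.05. In limma the adjusted p was 0.453, the smallest of the comparison, so the Ire1 probe did not pass. It passed once the array labelled IRE1 RNAi, replicate C, was left out (difference 2.87, adjusted p = 0.000125). Over all alternatives its adjusted p ran from 1.82e-05 to 1. With DTT the same difference was 2.33 (adjusted p = 0.00239). From here on the group is called by its label, and a direction refers to the arrays that carry it.

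The 2 Xbp1 probes were lower on every XBP-1 RNAi array than on its letter partner labelled IRE1 RNAi. For probe 1 the arrays labelled IRE1 RNAi gave -0.50, -0.15 and -0.68 and the XBP-1 RNAi arrays -1.12, -0.70 and -1.37. For probe 2 the values were -0.57, 0.10 and -0.21 against -0.76, -0.61 and -0.99. The groups did not overlap for either probe, with gaps of a few hundredths between the nearest arrays. The XBP-1 RNAi arrays were also below their letter partners without double-stranded RNA, where probe 1 gave -0.37, -0.09 and -0.95 and probe 2 gave -0.09, 0.05 and -0.45. The difference between the RNAi groups was 0.62 (95% interval 0.27 to 0.97, unadjusted p = 0.00143) for probe 1 and 0.56 (0.18 to 0.94, unadjusted p = 0.0063) for probe 2. In limma the adjusted p over all probes was 0.939 for both, so neither passed. With DTT, probe 2 passed with a difference of 0.88 (adjusted p = 0.00569) and probe 1 did not, at 0.38 (adjusted p = 0.389). The values are given as probe signal, and splicing of Xbp1 mRNA was not measured. Whether the signal is Xbp1 mRNA on the arrays with double-stranded RNA against XBP-1 was not tested.

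**Figure D1:**
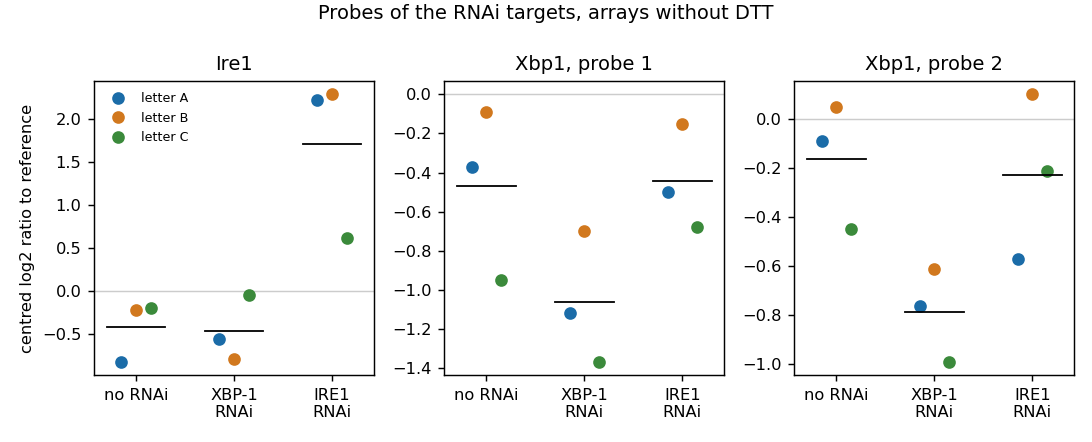
Centred log2 ratios to the reference of the Ire1 probe and of both Xbp1 probes on the 9 arrays without DTT, by group. Points are arrays, coloured by replicate letter, bars are means of 3 arrays, and each panel has its own vertical scale. The Ire1 probe lies highest on the 3 arrays labelled IRE1 RNAi (0.62 to 2.28), and both Xbp1 probes lie lowest under XBP-1 RNAi within each letter.

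Across the array, no probe passed the threshold between the groups. Of 5755 probes tested in limma, with the replicate letter as a block, 0 (0%) had an adjusted p under 0.05. At an unadjusted p under 0.05 there were 260 (4.52%), 230 higher (4%) and 30 lower (0.521%) on the arrays labelled IRE1 RNAi. That split depended on the scaling: 88.5% of these probes were higher with each array centred on its median, 74.8% with centring on the probes that had a value on all 18 arrays, 62.9% with quantile normalization and 26.5% as deposited. The median difference of all probes was 0.09 after centring and -0.14 as deposited. Small differences that lean one way therefore have no settled direction here.

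The measurement limits what could have been missed. The median standard error of a difference was 0.21 on the log2 scale, and the median 95% interval reached 0.44 to each side. For 5316 probes (92.4%) the whole interval lay within 1 log2 unit of 0. A lone difference at the median error would have needed 1.28 to pass the adjustment, so a smaller lone difference with that error could not be called. The bar is lower for a probe with a smaller error, or where many probes pass together. With DTT the 197 probes that were higher past the threshold had a median difference of 1.10. A missed threshold does not show that a gene had the same level in both groups.

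Groups without overlap were few. Of 4364 probes with a value on all 6 arrays, 114 (2.61%) had all arrays labelled IRE1 RNAi above all XBP-1 RNAi arrays and 22 (0.504%) had them below. The Ire1 and both Xbp1 probes were among the 114. In 837 probes (19.2%) the array labelled IRE1 RNAi was the higher in all 3 letter pairs, and in 204 (4.67%) the lower. These counts were made only on values centred on the array medians, where the median difference of all probes was 0.09. They were not repeated as deposited, where it was -0.14, so their lean to one side has no settled direction either.

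Among probes with a gene name and the same sign in all letter pairs, those with the smallest unadjusted p were listed. They are given as values only, since none passed. Agreement in sign across letters was thus set by the choice, which also favours groups without overlap. Mlp84B (unadjusted p = 0.00143 in limma) had no value in replicate B of XBP-1 RNAi and was not eligible, though its p was below that of CG2915 (0.00271). After Ire1, the listed probes higher on the arrays labelled IRE1 RNAi were CG3376, the cytochrome P450 gene Cyp310a1, Xbp1 probe 1 and CG2915. CG3376 stood at 0.67, 1.02 and 0.76 on those arrays and at 0.23, -0.08 and -0.61 under XBP-1 RNAi, a difference of 0.97 (95% interval 0.52 to 1.42, unadjusted p = 0.000391). In cells without double-stranded RNA CG3376 was at 1.02, 0.92 and 0.37. Cyp310a1 stood at -0.02, 0.00 and 0.09 against -0.89, -0.81 and -0.35, and at 0.05, 0.24 and 0.18 without double-stranded RNA. For CG3376 and Cyp310a1 the XBP-1 RNAi arrays were the low ones, below both other groups without overlap. CG2915 stood at 1.58, 0.48 and 1.18 against 0.30, 0.39 and 0.07, and its difference of 0.83 was followed by one of 1.61 with DTT, which passed (adjusted p = 0.000261).

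Of the probes chosen in the same way, those lower on the arrays labelled IRE1 RNAi were Nprl3, betaTub60D, Orct, Droj2 and U4-U6-60K. Nprl3, part of a complex that restrains TOR kinase, stood at -0.57, 0.01 and 0.03 against 0.41, 0.45 and 0.25, a difference of -0.55 (95% interval -0.94 to -0.16). The tubulin gene betaTub60D stood at 0.59, 0.60 and 1.14 against 1.37, 1.54 and 1.25, a difference of -0.61. The organic cation transporter gene Orct stood at 0.31, 0.14 and 0.51 against 0.80, 1.49 and 0.67, a difference of -0.67. The groups did not overlap for these 3 genes. They overlapped for Droj2, a DnaJ-type cochaperone (-0.49), and for the splicing factor U4-U6-60K (-0.55).

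ER chaperones and folding enzymes, through which cells fold secreted proteins, had the median difference of all probes, though not within each letter. By letter A, B and C the list medians were 0.235, -0.08 and 0.005, and those of all probes 0.01, 0.12 and 0.10. None of 20 probes tested had an unadjusted p under 0.05, against 4.52% of all probes. Their differences ran from -0.30 to 0.43 with a median of 0.09, which was also the median of all probes, and 19 of the 20 intervals lay within 1 log2 unit of 0. The protein disulphide isomerase gene Pdi stood at 1.16, 0.66 and 1.09 on the arrays labelled IRE1 RNAi and at 1.33, 1.04 and 0.86 under XBP-1 RNAi. ERp60, of the same enzyme family, stood at 1.87, 0.95 and 1.03 against 1.61, 0.80 and 0.97. For both genes the groups overlapped, and the differences were -0.11 (95% interval -0.60 to 0.39) and 0.16 (-0.30 to 0.61).

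The lectin chaperone calreticulin (Calr) gave 0.72, 0.08 and 0.54 against 0.51, 0.30 and 0.67, and ERp44, which retains proteins in the early secretory pathway, 0.94, 0.60 and 0.60 against 0.74, 0.34 and 0.76. Their differences were -0.05 and 0.10. The 2 probes of shv, a DnaJ-type protein of the secretory pathway, had differences of -0.30 (95% interval -0.74 to 0.14) and -0.29 (-0.81 to 0.22). Both shv probes also stood below cells without double-stranded RNA on all 3 arrays labelled IRE1 RNAi, with means of -0.50 and -0.41 against 0.29 and 0.39. Under XBP-1 RNAi the means were -0.20 and -0.12, and there probe 2 was below its letter partners without double-stranded RNA on all 3 arrays and probe 1 on 2 of them. Fkbp14, an ER prolyl isomerase, had the largest positive difference of the list, 0.43 (-0.13 to 0.99), with 1.77, 0.29 and 0.29 against 0.74, 0.06 and 0.26, so that it came mostly from letter A.

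Hsc70-3, the ER chaperone BiP and the classic marker of ER stress, stood at -1.63, -2.67 and -1.94 on the arrays labelled IRE1 RNAi and at -2.64, -2.76 and -1.78 under XBP-1 RNAi. Cells without double-stranded RNA gave -1.66, -1.36 and -1.51. The difference between the RNAi groups was 0.31 with an interval of -0.51 to 1.14, the widest of the list, and it changed sign when the array labelled IRE1 RNAi, replicate A, was left out (-0.0163).

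The same 20 probes in the 6 arrays with DTT serve as a comparison that shares no array with the unstressed one, though the fit's letter effects and variances were common to both. There 198 of 5728 probes passed (3.46%), 197 higher (3.44%) and 1 lower (0.0175%) on the arrays labelled IRE1 RNAi. Of the 20 ER chaperone probes 12 were higher past the threshold, with a list median of 0.96 against -0.03 for all probes. The change of the difference with DTT was tested directly as an interaction, in which 47 of 5417 probes passed (0.868%), 46 upward (0.849%) and 1 downward (0.0185%). Both counts depended on the processing: as deposited 43 passed with DTT and 13 in the interaction, with no replicate block 96 and 8, and with both changes 14 and 0, while without variance moderation 10 passed in the interaction. Among the 47 were 6 of the 20 ER chaperone probes: ERp60 (1.67, adjusted p = 0.0121), both shv probes (1.53, adjusted p = 0.0152, and 1.64, adjusted p = 0.024), ERp44 (1.19, adjusted p = 0.024), Calr (1.16, adjusted p = 0.0437) and Pdi (1.42, adjusted p = 0.0475). Hsc70-3 passed in neither comparison in limma. Its difference with DTT was 0.57 (adjusted p = 0.774) and its interaction 0.26 (adjusted p = 0.941). When each of the 12 RNAi arrays was left out in turn, ERp60 and shv probe 1 passed in 12 of 12 fits, shv probe 2 in 7, ERp44 in 6, and Calr and Pdi in 2. One of the arrays with DTT, replicate A labelled IRE1 RNAi, had 48.3% of its spots empty.

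**Figure D2:**
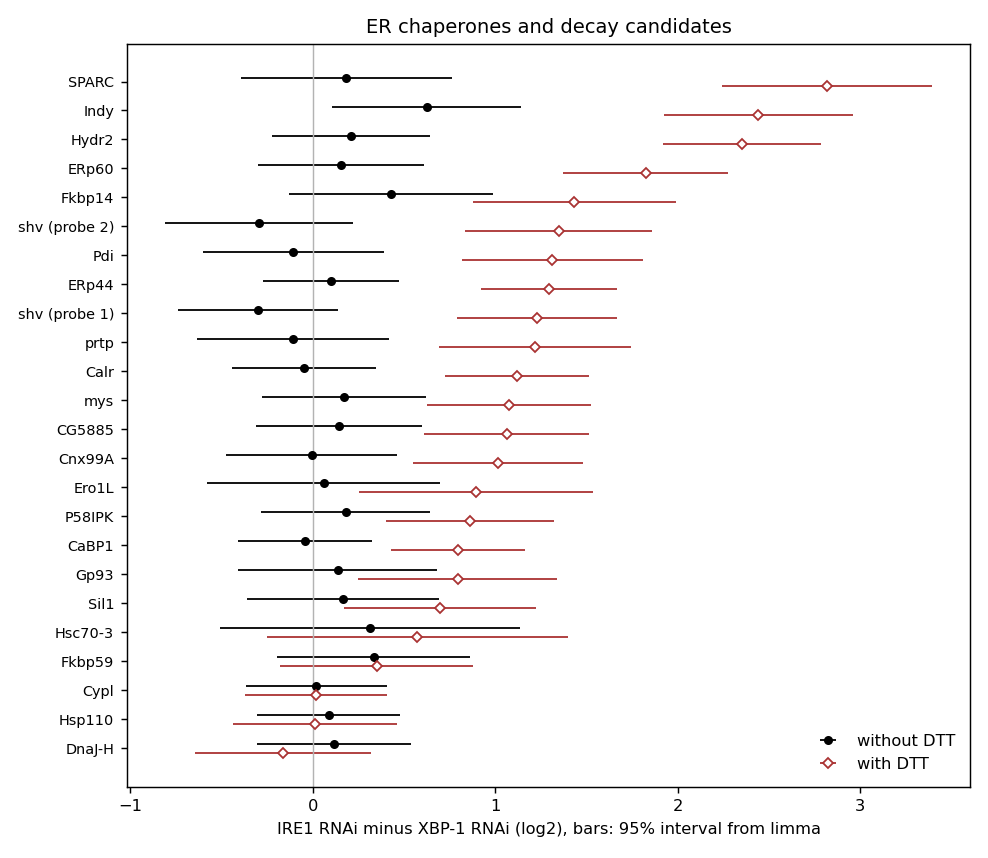
Difference between the arrays labelled IRE1 RNAi and those of XBP-1 RNAi (log2, horizontal axis) for probes of the ER chaperone list and of the candidates for IRE1-dependent decay, without DTT (filled) and with DTT (open), ordered by the difference with DTT. Bars are 95% intervals from limma. Without DTT all points lie between -0.30 and 0.62, while with DTT they reach 2.82.

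Sensors and regulators of the unfolded protein response include both RNAi targets, which make up 3 of the probes counted next. Of 13 tested, 4 were higher at an unadjusted p under 0.05 (background 4%) and 0 lower: Ire1, both Xbp1 probes and CrebA. CrebA, a transcription factor for genes of the secretory pathway, was read on 2 arrays labelled IRE1 RNAi, at -0.11 and -1.36 in replicates B and C, and at -2.18, -1.36 and -1.75 under XBP-1 RNAi. Its difference was 1.05 with an interval of 0.18 to 1.92, and with DTT it was -0.26. The median of the list was 0.10. Its remaining 9 probes had intervals that held 0.

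Genes of other steps of the secretory pathway gave list medians close to that of all probes. Of 12 genes of ER-associated degradation, which removes misfolded proteins, 0 had an unadjusted p under 0.05, and the median was 0.02. Edem2, a lectin of that pathway, had the smallest p, with a difference of 0.38 (95% interval -0.05 to 0.80). None of 19 probes of the signal recognition particle, the translocon and the signal peptidase had an unadjusted p under 0.05 (median 0.10), with Sec61beta, a subunit of the translocon, at 0.44 (-0.02 to 0.89). Of 25 N-glycosylation probes 1 was higher at that level (background 4%), alpha-Man-Ia, a mannosidase that trims N-glycans. It stood at 0.64, 0.15 and 1.12 against -0.58, -0.50 and 0.87, a difference of 0.71. With DTT its difference was 1.24 (adjusted p = 0.01 in limma), with no value in replicate A of either group. Of 29 probes of ER-Golgi transport 1 was lower (background 0.521%), betaCOP, a subunit of the vesicle coat COPI (-0.47, with 2 arrays of XBP-1 RNAi). In the arrays with DTT 9 of 23 N-glycosylation, 4 of 29 transport, 3 of 18 translocon and 1 of 12 degradation probes were higher past the threshold, against 3.44% of all probes, and 0 lower.

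mRNAs of secreted and membrane proteins that IRE1 may cut were followed as 6 candidates, recalled in part from work on this very system, so the list is not independent of these arrays. SPARC, a collagen-binding glycoprotein of basement membranes, stood at 1.68, 1.68 and 2.40 on the arrays labelled IRE1 RNAi and at 1.50, 1.54 and 2.17 under XBP-1 RNAi. It was higher within each letter, by 0.18, 0.14 and 0.23, while letter C stood above letters A and B in both groups, and the difference was 0.18 (95% interval -0.39 to 0.76). With DTT the SPARC difference was 2.82 (adjusted p = 3.54e-06), and the interaction was 2.63 (adjusted p = 0.0018). Hydr2, an alpha/beta hydrolase, stood at 1.09, 0.70 and 1.07 against 0.51, 0.50 and 1.22, a difference of 0.21 (-0.22 to 0.64). With DTT it was 2.35, and the interaction was 2.14 (adjusted p = 0.00072). SPARC and Hydr2 passed in the interaction with any 1 of the 12 arrays left out.

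Indy, a citrate transporter of the cell membrane, was the 1 of 6 candidates with an unadjusted p under 0.05 (background 4% higher). It stood at 0.31, 1.04 and 0.63 on the arrays labelled IRE1 RNAi, at -0.03, -0.16 and 0.30 under XBP-1 RNAi, and at 0.92, 0.23 and 0.71 without double-stranded RNA. The RNAi groups did not overlap, by a margin of 1 hundredth between replicate A of the first and replicate C of the second. The difference was 0.62 (95% interval 0.10 to 1.14, unadjusted p = 0.0211, adjusted p = 0.939 in limma) and was 2.44 with DTT. The interaction for Indy was 1.82 (adjusted p = 0.0152), also past the threshold with any 1 array left out. The candidates had a median difference of 0.20 without DTT and 1.78 with it, where 5 of 6 were higher past the threshold (background 3.44%). Without DTT 4 of the 6 intervals lay within 1 log2 unit of 0.

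The 197 probes that were higher past the threshold with DTT were read in the unstressed arrays. Those arrays gave no value to the contrast that chose the probes, but they entered the fit behind its letter effects and variances, so the choice was not independent of them. Their median difference without DTT was 0.16 against 0.09 for all probes, and 1.10 with DTT. Of the 197, 155 (78.7%) had a difference above 0 without DTT, against 67.3% of all probes. By letter their medians were 0.26, 0.14 and 0.10, and those of all probes 0.01, 0.12 and 0.10, so the distance from all probes lay mostly in letter A. At an unadjusted p under 0.05, 12 (6.09%) were higher, against 4% of all probes, and 0 were lower. Among these 12 were probes of both RNAi targets, the Ire1 probe and Xbp1 probe 2. For 182 of them (92.4%) the 95% interval without DTT lay within 1 log2 unit of 0. The interaction passed for 46 of the 197.

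**Figure D3:**
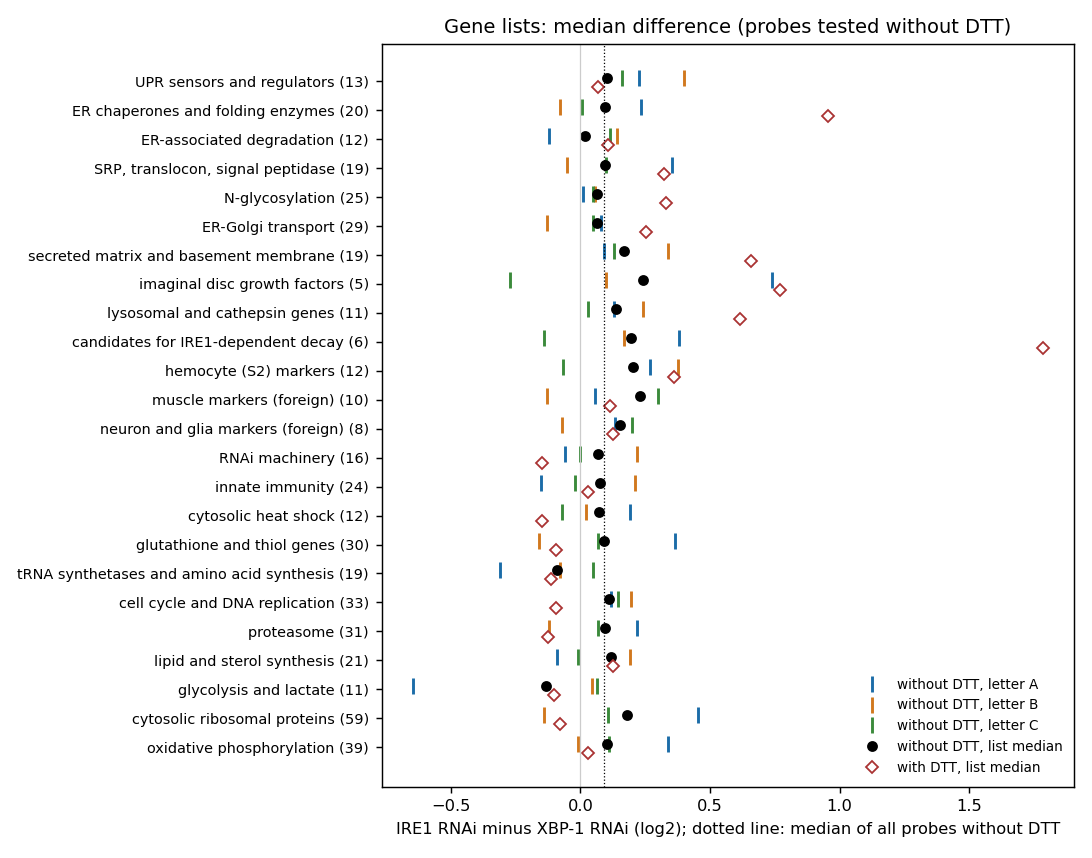
Median difference between the arrays labelled IRE1 RNAi and those of XBP-1 RNAi (log2, horizontal axis) for 24 gene lists with at least 3 probes tested (number in brackets). Filled points are fitted values without DTT, coloured ticks the medians within each replicate letter, open diamonds the fitted values with DTT. Without DTT all list medians lie between -0.13 and 0.24, while with DTT the candidates for IRE1-dependent decay reach 1.78 and the ER chaperones 0.96.

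Among secreted proteins and lysosomal genes, the matrix genes had the smallest share of narrow intervals. Of 19 probes of the extracellular matrix 12 had an interval within 1 log2 unit of 0, against 92.4% of all probes, and 2 were higher at an unadjusted p under 0.05 (background 4%), with a list median of 0.17. Mp, a collagen, stood at -0.15, -0.72 and -0.39 against -0.95, -1.22 and -0.66 (difference 0.52, and 0.17 for its second probe), and Glt, a basement membrane glycoprotein, at 0.92, 0.92 and 0.46 against 0.18, -0.16 and 0.65 (difference 0.54). The groups overlapped for both. Among 5 imaginal disc growth factors, secreted chitinase-like proteins, none reached that level, 5 of 5 intervals lay within 1 log2 unit of 0, and the median was 0.24. Idgf2 stood at 3.37, 1.52 and 2.62 against 2.53, 1.77 and 2.97, a difference of 0.08 (95% interval -0.45 to 0.61), and its interaction with DTT was 1.53 (adjusted p = 0.0458, past the threshold in 3 of the 12 fits that left out an array). Idgf4 was at 0.34 (-0.26 to 0.95). Of 11 lysosomal probes 0 reached it and 10 had such an interval, with Lamp1, a lysosomal membrane protein, at 0.52 (-0.08 to 1.11) and 1.33 with DTT (adjusted p = 0.00689).

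Genes of protein synthesis and energy metabolism had list medians that differed between letters. Of 59 probes of cytosolic ribosomal proteins 2 were higher at an unadjusted p under 0.05, a share below the 4% of all probes, and 0 lower. They were RpL7A (difference 0.88) and RpS12 (0.49). RpL7A stood at 2.59, 0.77 and 1.41 against 0.96, 0.21 and 0.96, and RpS12 at 2.12, 1.93 and 1.36 against 1.66, 1.13 and 1.14. The list median was 0.18, made of 0.46 in letter A, -0.14 in B and 0.11 in C. Glycolysis genes had a list median of -0.13, made of -0.65, 0.05 and 0.07 in A, B and C, with pyruvate kinase (PyK) at -0.54 (95% interval -1.11 to 0.04). Oxidative phosphorylation (39 probes, 0 at that level, median 0.10) gave 0.34, -0.01 and 0.11 by letter, with ND-51L1 at 0.38. The proteasome (31 probes, 0 at that level, median 0.09) gave 0.22, -0.12 and 0.07, with the 2 Rpn12 probes at 0.31 and -0.08. Of the 24 lists with at least 3 probes, 5 had letter medians of 1 sign in all 3 letters.

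Cell cycle genes were at 0.11 in the median of 33 probes, with 2 higher at an unadjusted p under 0.05 (background 4%): stg, the phosphatase that starts mitosis (0.52), and Orc6, a subunit of the origin recognition complex (0.43). The stg difference was 1.18 in letter A, 0.23 in B and 0.16 in C. Glutathione and thiol genes were at 0.09 in the median of 30 probes, also with 2 higher (background 4%), both of them probes of cnc, a transcription factor for detoxification genes. One stood at -1.74, -1.38 and -1.69 against -2.11, -1.95 and -2.22 (difference 0.49), without overlap of the groups. The other stood at -1.86, -1.75 and -2.41 against -2.89 and -2.46 in replicates A and C of XBP-1 RNAi (difference 0.67). Of 21 lipid and sterol genes 1 was higher (background 4%), bbc, a phospholipid synthesis enzyme (0.44), with 1.11, 0.23 and -0.01 in letters A, B and C. Of 19 probes of tRNA synthetases and amino acid synthesis 0 reached that level (median -0.09, ThrRS at 0.35).

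The RNAi machinery, innate immunity and cytosolic heat shock were examined because both groups took up double-stranded RNA. None of 16 RNAi machinery probes had an unadjusted p under 0.05 (median 0.07), and AGO1, an Argonaute protein, had the smallest p with a difference of 0.35 (95% interval -0.11 to 0.80). None of 24 immunity probes did either (median 0.08, the receptor gene Tl at 0.47). Tl had no value in replicate A labelled IRE1 RNAi or in replicate B of XBP-1 RNAi. Of 12 heat shock probes 1 was lower (background 0.521%), Droj2, given above, and the median was 0.07.

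Markers of cell types gave 1 probe in each direction. Of 12 hemocyte probes, which mark S2 cells, 1 was lower at an unadjusted p under 0.05 (background 0.521%). It was Sr-CI, a scavenger receptor, with -2.37, -1.17 and -0.52 against -1.77, -0.45 and -0.36 (difference -0.49). The list median was 0.20. Of 10 muscle probes 1 was higher (background 4%). It was Mlp84B, a muscle LIM protein, with -1.35, -2.37 and -3.12 against -2.21 and -4.07 in replicates A and C of XBP-1 RNAi (difference 0.89). The other 9 did not reach that level, and the list median was 0.23. By array, the median of the muscle probes was -1.16, -1.54 and -1.17 on the arrays labelled IRE1 RNAi and -1.31, -0.84 and -1.68 under XBP-1 RNAi, which overlap. Each median was taken over the probes with a value on that array, so the probes differed between arrays. Replicate B of XBP-1 RNAi lacked Mlp84B. None of 8 neuron and glia probes reached an unadjusted p under 0.05 (elav at 0.36). Of the epidermis, fat body and yolk markers 1 probe, ple, could be tested (0.27), with no value in replicate C of either group.

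The replicate letter carried most of the variation among the 6 arrays. Over the 4364 probes with all 6 values, the letter held 68.8% of the sum of squares around each probe's mean, the RNAi target 10.6% and the remainder 20.6%, with 2, 1 and 2 degrees of freedom. Across probes, the arrays of letter C from both RNAi groups correlated with r = 0.956, the highest of the 153 pairs in the study, and those of letters A and B with 0.861 and 0.860. Within the arrays labelled IRE1 RNAi r was 0.689 to 0.744, and within XBP-1 RNAi 0.803 to 0.876. Of the values of the letter C pair 0.525% were identical, so neither array repeats the values of the other. That share cannot show whether the RNA came from separate samples. The arrays were counted as separate samples by their titles. All arrays share the reference and all probes of an array share its hybridisation, so these correlations describe the arrays and have no p.

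Letter pairs did not repeat each other's differences without DTT. The difference between the array labelled IRE1 RNAi and the XBP-1 RNAi array was taken within each letter and set against that of another letter, across probes. Without DTT r was -0.02 for A and B, -0.15 for A and C and 0.10 for B and C, and with DTT 0.59, 0.35 and 0.36. The SD of the differences without DTT was 0.47 in letter A, 0.35 in B and 0.28 in C. Differences beyond 1 log2 unit were seen in 218 of 5365 probes (4.06%) in A, 83 of 4779 (1.74%) in B and 46 of 5720 (0.804%) in C. Leaving out both arrays of letter C, a choice made after seeing the data, left the Ire1 probe as the 1 probe past the threshold (difference 2.92, adjusted p = 0.000733), and without both arrays of letter A or of letter B 0 passed in limma, with 145 and 181 probes at an unadjusted p under 0.05.

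**Figure D4:**
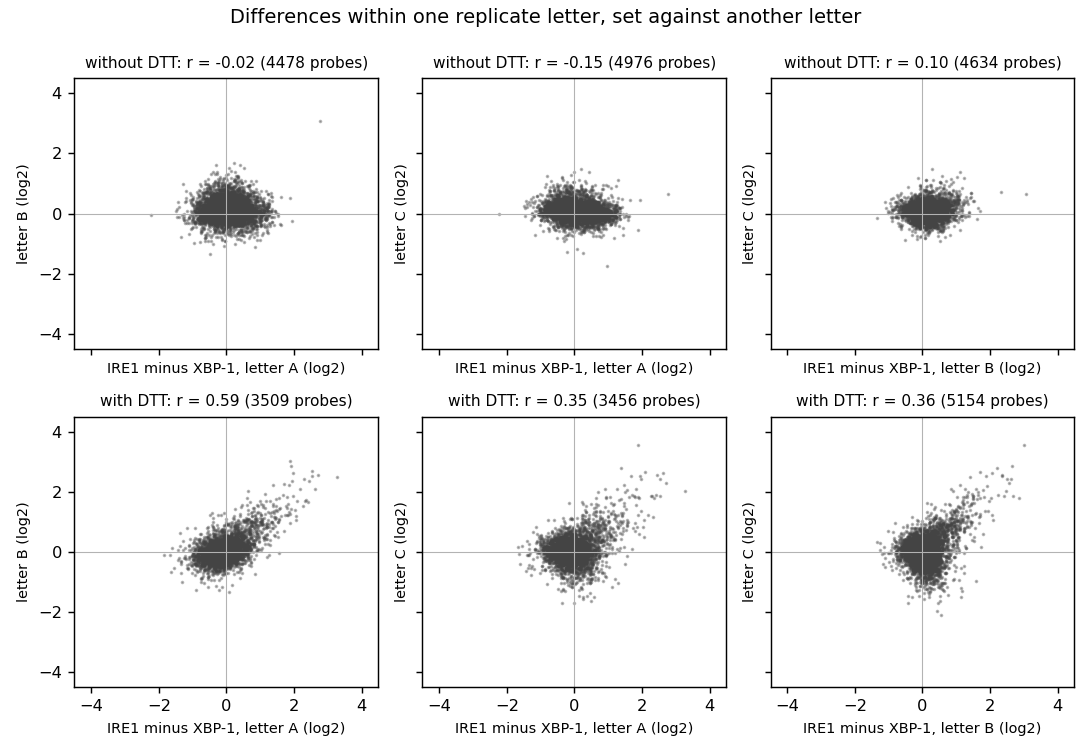
Difference between the array labelled IRE1 RNAi and the XBP-1 RNAi array within one replicate letter (log2, horizontal axis) against the same difference within another letter (log2, vertical axis). Each point is a probe, the upper panels are without DTT and the lower with DTT. Without DTT the clouds have no common slope (r from -0.15 to 0.10) and the single point far to the upper right for letters A and B is the Ire1 probe, while with DTT probes spread along the diagonal (r from 0.35 to 0.59).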

How the data were processed

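The deposited table holds log2 ratios, as read here, of spotted arrays with 2 channels; per the labels, the authors normalized them in the NOMAD database and removed dim, inconsistent or defective spots. The base and numerator of the ratio are not given in the sources used here. Each probe number was taken as a CG gene number and looked up in RefSeq Release 6: 6683 by locus tag and 457 by synonym, with 107 that matched several genes and 10 that matched none left unnamed.

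Each array was centred on its median. limma 3.58.1 (R 4.3.3) fitted 6 group means and the replicate letter as a block on 18 arrays, with robust moderation of the variance, and each contrast was computed from the values a probe had. Probes needed 2 values per group. p-values are 2-sided, adjusted by Benjamini-Hochberg over all probes tested, with a threshold of 0.05. Spots with no value were left empty. The scripts were tested on simulated data. The letters pair the arrays: deviations from the group means correlated between the RNAi groups without DTT with 0.51 (A), 0.622 (B) and 0.656 (C) over 2737 probes, and the titles give the letters. The block was shared by all 6 groups, and the pairing was uneven over the other pairs of groups checked. It ran from 0.231 (XBP-1 RNAi with and without DTT, letter C) to 0.721 (both RNAi groups with DTT, letter A).

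Named genes were the Ire1 and Xbp1 probes, the 5 probes with the smallest p per direction and 1 sign in all letter pairs, and of each of 25 lists the probe with the smallest p. SPARC, Indy, Hydr2, Hsc70-3, ERp60, Pdi, Calr, shv, ERp44, Idgf2, the second probes of cnc, Mp and Rpn12, CrebA, Glt, Orc6 and RpS12 were added after their values were seen. The members and lists were chosen with earlier results of these data known.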

Additional observations from a re-analysis of the deposited data

Results flagged for a closer look

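For 9 of the named genes the difference between the arrays labelled IRE1 RNAi and those of XBP-1 RNAi was itself different with and without DTT, by the interaction in limma. These genes were named after their values were seen, and they are part of the 47 of 5417 probes (0.868%) that passed. With DTT minus without, it was larger by 2.63 for SPARC (adjusted p = 0.0018), 2.14 for Hydr2 (adjusted p = 0.00072), 1.82 for Indy (adjusted p = 0.0152) and 1.67 for ERp60 (adjusted p = 0.0121) on the log2 scale. It was larger by 1.53 and 1.64 for the 2 shv probes (adjusted p = 0.0152 and 0.024), 1.53 for Idgf2 (adjusted p = 0.0458), 1.42 for Pdi (adjusted p = 0.0475), 1.19 for ERp44 (adjusted p = 0.024) and 1.16 for Calr (adjusted p = 0.0437). SPARC, Hydr2, Indy, ERp60 and shv probe 1 were past the threshold in each of 12 fits that left out 1 array; for the others the highest adjusted p of those fits was 0.186. Groups of 3 arrays are too small for a test of single outlying samples.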

How the results depend on the processing

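The count of 0 probes between the groups without DTT held in 19 of 22 alternatives. It was 1, the Ire1 probe, as deposited (1.94), without both arrays of letter C (2.92) and without the array labelled IRE1 RNAi, replicate C; with 1 array left out the count ran from 0 to 1 and the Ire1 difference from 1.72 to 2.87. As deposited, the moderation of the variance reached the limit at which a probe is given the common variance. How many probes it did so for was not counted. With no replicate block 0 passed, 66 had an unadjusted p under 0.05 and the smallest adjusted p was 0.557. Alternatives that leave out both arrays of a letter, centre on probes with a value on all 18 arrays, set the block separately with and without DTT, or leave out an array in the comparison with DTT were added after seeing the data.

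With DTT 198 probes passed, and 43 as deposited, 96 with no replicate block and 14 with both changes; in the interaction 47, and 13, 8 and 0, and 10 without moderation. With 1 array left out the interaction gave 22 to 39. Of the 10 interactions named, 83 of 230 alternative values were no longer past the threshold and 0 changed sign.

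Of 1048 values of the 51 named probes 1016 kept direction and side of the threshold, and 29 changed sign, all of them differences that never passed. As deposited, with and without the block, Hydr2 was at -0.0133, SPARC at -0.04, ERp60 at -0.0667, ERp44 at -0.12, Idgf2 at -0.14 and the second Mp probe at -0.20 (-0.13 with no block), and with no block also ND-51L1 at -0.0267, Tl at -0.035, elav at -0.0067 and Idgf4 at -0.10. Quantile normalization put Idgf2 at -0.32. Without both arrays of letter A Hsc70-3 was at -0.035 and Idgf2 at -0.30, and without both of letter B Pdi was at 0.03 and Calr at 0.04. With 1 array left out Hsc70-3 ran from -0.0163 to 0.52, ERp60 from -0.0797 to 0.33, Idgf2 from -0.24 to 0.31, Calr from -0.13 to 0.0463 and Pdi from -0.40 to 0.0437. The cause of these changes was not tested. Of 542 values of the list medians 484 moved by less than the spread between letters. The 3 arrays per group and the empty spots limit what could be called.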

Other observations

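Some genes had their highest or lowest value in replicate letter C in both RNAi groups, and in most cases also without double-stranded RNA. The small heat shock protein gene Hsp23 stood at -1.06, -0.99 and 1.08 in letters A, B and C of the arrays labelled IRE1 RNAi, at -0.97, -1.13 and 1.18 under XBP-1 RNAi and at 0.85 in letter C without double-stranded RNA. Letter C had the highest value for 8 of 12 heat shock probes on the arrays labelled IRE1 RNAi and for 9 of 12 under XBP-1 RNAi, against 35.2% and 37.7% of all probes, and for 10 of 12 without double-stranded RNA, against 28.9%. The size differed between the RNAi groups for some of them: letter C exceeded the mean of A and B by 1.015 and 0.02 for Hsp60A and by 1.04 and 2.195 for Hsp26. The median of that list was -0.06, 0.05 and 0.99 by letter in the former and 0.12, 0.25 and 0.81 in the latter, and -0.16, 0.31 and 0.85 without double-stranded RNA.

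The peptidoglycan recognition genes PGRP-SA and PGRP-SD, which sense bacteria, were also highest in letter C. PGRP-SA stood at 0.75, 1.58 and 2.93 on the arrays labelled IRE1 RNAi and at 1.16, 1.49 and 2.97 under XBP-1 RNAi, and at 2.30 in letter C without double-stranded RNA. The actin-severing protein gene Gel was at 1.66 in letter C of both groups, against 0.46 or less in the others, and at 1.42 in letter C without double-stranded RNA. The translation initiation factor gene eIF4G1 was lowest in letter C, at -4.32 and -4.47, with -3.02 and -0.35 in letters A and B of the arrays labelled IRE1 RNAi and -3.03 and -1.29 under XBP-1 RNAi, and it was at -4.21 in letter C without double-stranded RNA. Gyf was at -3.09 and -3.38 in letter C of the RNAi groups and at -2.80 without double-stranded RNA. These genes were picked for their values, so no test is given.

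The difference between the RNAi groups also varied with the genomic length of the gene in RefSeq, differently by letter. Across probes the rank correlation of length and difference was -0.17 in letter A (5362 probes), 0.35 in B (4775) and 0.14 in C (5716). In letter B genes up to the 25th percentile of length had a median difference of 0 and those from the 75th percentile 0.30, while in letter A they had 0.19 and -0.04. This was examined after seeing the data, and genes are not replicates.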
